A study of Homo sapiens with 12 samples.

Results

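The 4 control libraries of a 12-library series on KELLY cells were examined on their own, to describe which genes and gene classes these cells express at high, low or undetectable levels and how far the 4 libraries differ. The libraries were chosen by their labels: all of those that received the control oligonucleotide and no others, 4 of 12. KELLY is an established human neuroblastoma line whose genome is known to carry an amplification of MYCN. The cells were plated in medium with 10% serum for 24 h, changed to 4% serum, and given the control morpholino oligonucleotide paired with a DNA leash and packed in a lipid complex at 50 nM for 48 h. Total RNA was depleted of ribosomal RNA, made into strand-marking libraries and read as single reads of 100 bases. Every library therefore came from transfected cells of 1 line, no untreated cells were included here, and nothing in the labels tells whether the 4 libraries were separate cultures. The SDs below may therefore hold technical spread alone.

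Neuroblastoma arises from sympathoadrenal cells of the neural crest, the lineage that also gives sympathetic neurons and the chromaffin cells of the adrenal medulla. Cells of this lineage make noradrenaline from tyrosine, store it in granules rich in chromogranins, and are specified by a small circuit of transcription factors that includes HAND2, GATA3 and ISL1. Neuroblastoma lines are known to occupy an adrenergic state that uses this circuit, or a mesenchymal state marked by factors such as PRRX1 and SNAI2 together with matrix genes. MYCN, a relative of MYC, binds DNA with its partner MAX, and its amplification marks a high-risk form of the tumour.

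Throughout, a value is a deposited normalized count per gene, and a level is that value divided by the length of the gene's longest annotated transcript and scaled so that all genes of a library sum to 1 M (levels are given per M), so that levels can be compared between genes. Where the median transcript length or the union of exons moved a ratio of levels by over 1.5 times, that value follows in parentheses. A gene was called present where its value was at least 10 in each of the 4 libraries. The library totals were 32.3, 31.2, 30.7 and 30.5 M in replicates 1 to 4, and 1 read was worth 0.978 to 1.05, which gives 29.1 to 31.8 M reads per library against a stated mean of 25 M. A value of 0 in 1 library allows up to 3 reads, or 0.0944 to 0.103 reads per M, and this floor covers counting error only. Some RNAs that every cell uses, such as RNU4-1 and RN7SL3, are also listed at 0, so a 0 is given only as listed. Each symbol has 1 row, and rows whose identifier the annotation used here lacks were matched by symbol (among the genes described, CHGA, MLXIP, RPS18, B2M, DAXX, HSPA1A, HSPA1B, TNF, POU5F1, POLR3E, GPI, PKLR, TUBB, RPL9P9, CDKN1C, KCNQ1 and the HLA genes HLA-B, HLA-C, HLA-E and HLA-DQA1, with PSMB8 and PSMB9). How reads from other copies of these genes in the reference were treated is not known, so their values and their calls of presence are uncertain. Statements on the spread between libraries are over the 17792 present genes outside chromosome Y. Replicate 1 stood apart from the others. The SD over genes of its log2 deviation from the gene's median library was 0.327, against 0.2002 to 0.242 in replicates 2 to 4, and it was the highest library for 36.7% of present genes and the lowest for 34.4%. Its deviation fell with transcript length (Spearman's rho −0.48 over 13593 protein-coding genes, a description across genes that are not independent replicates) and rose with transcript GC content (rho 0.35). In the shortest 25% of transcripts, of 2458 bases or less, its median log2 deviation was 0.19, and in the longest 25%, of 5569 bases or more, it was −0.15.

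Of 55771 genes in the table, 17801 (31.9%) were present, 15776 (28.3%) were listed at 0 in all 4 libraries and 22194 lay between. Among 19999 nuclear protein-coding genes, 13607 (68%) were present and 1513 (7.57%) were at 0. Among 14129 long non-coding genes, 2995 (21.2%) were present and 2656 (18.8%) were at 0. Pseudogenes were present in 940 of 14894 rows and small RNAs in 105 of 5538. The median present protein-coding gene had a value of 834 and a level of 16.4 per M, against a median level of 5.37 over all protein-coding genes.

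Nuclear protein-coding genes held 87.9% ± 0.546 of the summed values (SD, n = 4), at 87.2%, 87.8%, 88.0% and 88.5% in replicates 1 to 4. The 13 messengers of the mitochondrial genome held 7.50% ± 0.383, and here replicate 1 was the highest at 7.99% and replicate 4 the lowest at 7.07%. Long non-coding genes held 1.85% ± 0.0478, pseudogenes 1.48% ± 0.0515, mitochondrial ribosomal RNA 1.13% ± 0.0635 and small RNAs 0.0425% ± 0.00191. The leading 10 rows by mean value together took 9.15% ± 0.427 of the total, the leading 100 took 22.9% ± 1.31 and the leading 1000 took 51.3% ± 1.41, so that 924 of the 55771 rows held 50% of all values.

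**Figure D1:**
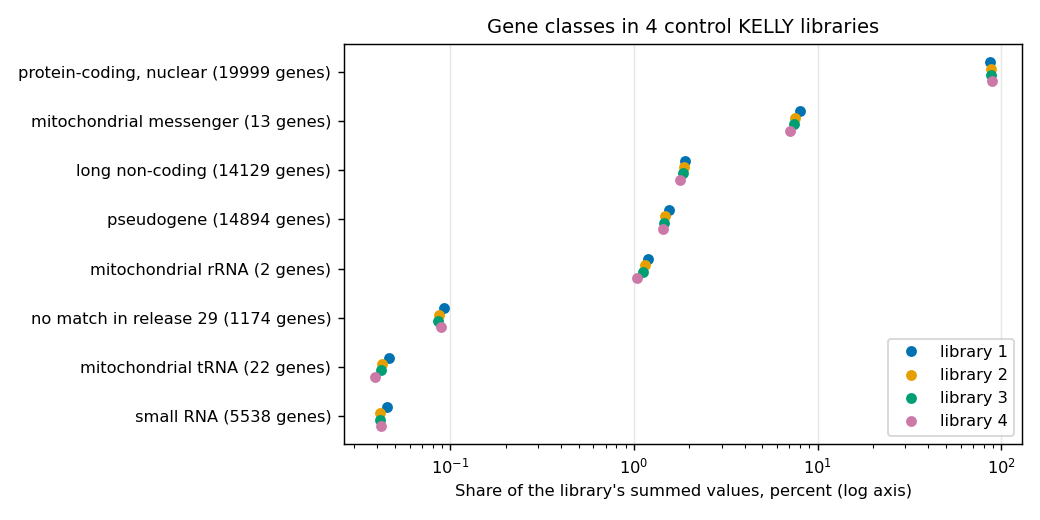
Share of the summed normalized counts held by each gene class, in percent on a log axis, with 1 point per control library (library 1 is replicate 1, and so on). Nuclear protein-coding genes lead at 87.9% and mitochondrial messengers follow at 7.50%, and the points of the 4 libraries lie close together in every large class.

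All 13 mitochondrial messengers, which encode core subunits of the respiratory chain, were present. MT-CO1, the catalytic subunit of cytochrome c oxidase, had values of 606421, 557435, 536899 and 520979. Its mean level was the highest of any gene measured, 27955 ± 128 per M. MT-ATP6 was close at 27820 ± 680 per M, a gap smaller than the SD of MT-ATP6, so their order is uncertain. MT-ND6, the single messenger encoded on the other mitochondrial strand, had the lowest level of the 13, 3584 ± 434 per M.

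The 20 nuclear protein-coding genes with the highest levels were dominated by the machinery of protein synthesis. They held 11 cytosolic ribosomal proteins (RPL41, RPL7A, RPS18, RPS2, RPS3A, RPS12, RPS6, RPL8 and RPSA among them), the elongation factors EEF1A1 and EEF1G, and NPM1, a nucleolar chaperone of ribosome assembly. First among them was GAPDH, a glycolytic enzyme, with values of 184465, 145425, 138267 and 133442 and a level of 6198 ± 504 per M. EEF1A1, which brings aminoacyl-tRNA to the ribosome, followed at 5555 ± 81.3 per M, and LDHB, a subunit of lactate dehydrogenase, stood at 2732 ± 234.5 per M. GAPDH was highest in replicate 1, and the other 3 libraries lay within a narrower range.

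The remaining members of the leading 20 were CHGA, RGS5, MYCN and TUBB. CHGA, the main core protein of catecholamine granules, had values of 134935, 109217, 103720.0 and 103600.0, with replicate 1 above the other 3, and a level of 4233 ± 263 per M. RGS5, a regulator that shortens G protein signals, had values of 168418, 208839, 209540.0 and 204102, with replicate 1 below the other 3, and a level of 2638 ± 409 per M. TUBB, a beta-tubulin, had a level of 2399 ± 56.7 per M. RGS4, a relative of RGS5 singled out after its values were seen, had a mean value of 39661 ± 2536 (SD, n = 4) and a level of 821 per M. The order depends on the length used: with the median transcript length 12 of these 20 genes stayed in the leading 20, with the union of exons 14 did, and ranked by value alone 11 did.

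Ribosomal protein genes and some translation factors are known to start transcription at a C followed by a run of pyrimidines, the terminal oligopyrimidine motif through which growth signals control their translation. The start regions of some of the leading genes are therefore shown, as 50 bases that end 10 bases into the transcript, with the first 5 transcribed bases in capitals. They come from RefSeq on GRCh38.p14, and the first 6 begin with a C followed by 4 pyrimidines. RPL41 lies at chr12:56116593-56116642, + strand, RPL7A at chr9:133348178-133348227, + strand, RPS18 at chr6:33272035-33272084, + strand, RPS3A at chr4:151099588-151099637, + strand, RPLP0 at chr12:120201102-120201151, − strand and EEF1A1 at chr6:73521023-73521072, − strand. The 4 that follow are lineage genes without that start: MYCN at chr2:15940510-15940559, + strand, CHGA at chr14:92923110-92923159, + strand, DBH at chr9:133636323-133636372, + strand and HAND2 at chr4:173530220-173530269, − strand.
RPL41: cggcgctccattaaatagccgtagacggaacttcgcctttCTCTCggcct
RPL7A: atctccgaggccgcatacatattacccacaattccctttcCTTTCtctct
RPS18: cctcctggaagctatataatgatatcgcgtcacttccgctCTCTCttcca
RPS3A: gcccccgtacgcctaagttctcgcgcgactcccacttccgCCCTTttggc
RPLP0: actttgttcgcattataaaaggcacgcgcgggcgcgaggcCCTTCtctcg
EEF1A1: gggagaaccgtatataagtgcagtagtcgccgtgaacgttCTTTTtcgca
MYCN: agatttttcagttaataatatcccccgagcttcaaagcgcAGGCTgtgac
CHGA: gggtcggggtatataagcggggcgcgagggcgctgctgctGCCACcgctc
DBH: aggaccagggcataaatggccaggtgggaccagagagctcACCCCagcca
HAND2: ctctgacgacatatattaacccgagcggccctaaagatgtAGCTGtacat

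Start windows of 300 bases (250 before the start and 50 from it) could be read for the 10836 of 19784 protein-coding genes that have a single RefSeq start, and the others were not used. A C at the start followed by 4 bases that are each C or T was found in 4.66% of these windows, in 14.2% of those in the upper 10% of present genes by level (107 of 754), in 2.61% of those of genes listed at 0 and in 73.2% of those of ribosomal protein genes (41 of 56). With the start allowed to shift by up to 5 bases, the share was 82.1% for ribosomal protein genes and 21.9% over all windows. An observed to expected CpG ratio above 0.6, the mark of a CpG island, was found in 84.2% of windows of present genes, in 31.9% of those between the limits and in 14.4% of those at 0, and the median ratio was 0.848 in present genes and 0.215 in genes at 0. TATAAA on the sense strand, 45 to 16 bases before the start, stood in 1.82% of windows of present genes and in 13.98% of those at 0, against 4.26% of all. CACGTG, the canonical E-box that MYC proteins bind, stood on either strand in 8.96% of all windows, in 10.4% of those of present genes, in 14.3% of the upper 10% by level and in 4.61% of those at 0. These are matches of letters in fixed windows, and no binding was measured.

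MYCN (chr2:15940564-15947007, + strand, GRCh38) had values of 92957, 88246, 84161 and 81151, a mean of 86629 ± 5124 (SD, n = 4), and ranked 16th by level among protein-coding genes at 2585 ± 46.3 per M (1227 by median length). All 4 libraries lay within a narrow range, with replicate 1 the highest and replicate 4 the lowest. This single gene held 0.278% ± 0.00949 of all values. MYC, its relative, was not present: its values were 1.14, 14.2, 4.76 and 1.44, with replicate 2 alone above 10. MYCL, the third member of the family, was present at a low mean value of 29.8 ± 7.23 (SD, n = 4).

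Of the 13 genes of the MYC, MAX and MXD network, which compete for MAX or its relative MLX, 11 (84.6%) were present, against 68% of all protein-coding genes. MAX, the obligate partner of MYCN, had values of 1233.7, 1529, 1643 and 1628 and a level of 37.5 ± 6.92 per M, and the level of MYCN was 71.0 ± 14.2 (19.8 by median length) times that of MAX, and 60.4 to 91.4 over the 4 libraries. MLX, the partner of the MONDO proteins, had a level of 71.8 per M. The repressors MXI1, MNT, MGA and MXD4 had mean values of 1504, 1481, 4064 and 746, and MXD3 and MXD1 had 394 and 312. MLXIP, a glucose sensor that binds MLX, had a mean value of 3285 ± 462 (SD, n = 4), while its paralog MLXIPL was not present, at 7.71 ± 2.57 (SD, n = 4).

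Of 22 genes listed from the arm of chromosome 2 that carries MYCN, MYCN included, 18 (81.8%) were present, against 68% of protein-coding genes. Within 2 Mb on each side of MYCN, with every row counted, 12 of 38 rows (31.6%) were present and 12 (31.6%) were at 0, against 31.9% and 28.3% of all genes, so that the window lay near the share of all genes, and 8 of its 10 protein-coding rows were present. DDX1, an RNA helicase whose start lies at −349.4 kb from that of MYCN and which is often amplified with it, had a mean value of 12777 ± 991 (SD, n = 4) and a level of 352 ± 6.61 per M. NBAS, a vesicle transport gene that starts at −773.7 kb from MYCN, had a level of 30.6 ± 1.81 per M. By median transcript length the levels of NBAS and DDX1 were 103 and 275 per M. ODC1, the rate-limiting enzyme of polyamine synthesis and a known MYC target, had a mean value of 18708 ± 1277 (SD, n = 4) and a level of 548 ± 36.6 per M. The ratio of the MYCN level to that of DDX1 was 7.35 ± 0.231 (4.46 by median length).

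MYCNOS, a transcript antisense to the start of MYCN, had values of 2621, 2999, 2636 and 2767, and the MYCN level was 15.9 ± 1.46 (7.80 by median length and 29.2 by union of exons) times its level. The kit marks strand, but whether the counting used it is not given in the sources used here, so reads from the stretch that both genes share may be divided between them in an unknown way. Of the other members, mean values were 3108 for SMC6 (DNA repair), 2649.8 for ROCK2 (a kinase of the actin cytoskeleton), 3607 for NOL10 (nucleolar), 4651 for TRIB2 (a pseudokinase), 4913 for LPIN1 (a lipid phosphatase) and 4222 for GREB1. GEN1, a resolvase of DNA junctions, had 3445, RDH14 539, HPCAL1 681, VSNL1 225 and FAM49A 405. GACAT3 and KCNS3 were low at 52.5 and 53.6. MYCNUT (8.08), RAD51AP2 (10.8) and NT5C1B (3.51) were not present and MSGN1 was at 0.

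All 30 adrenergic regulators examined were present, against 68% of protein-coding genes. Their median value was 2998 and their median level 49.3 per M, against 16.4 for the median present protein-coding gene. Apart from MYCN, the highest levels were those of DLK1, a Notch-like ligand of immature chromaffin cells (542 ± 16.6 per M), GATA2 (535 ± 45.2) and HAND2 (483 ± 8.32). HAND1, INSM2 and PHOX2A followed at 361 ± 18.3, 295 ± 14.1 and 258 ± 15.5 per M. HAND2, a basic helix-loop-helix factor of sympathetic neurons (chr4:173524969-173530229, − strand), had values of 18586, 17559.5, 16638 and 16386. Its coefficient of variation (CV, the SD as a share of the mean) was 5.78%, with replicate 1 the highest. Part of HAND2 overlaps HAND2-AS1 on the opposite strand, and how reads from that stretch were divided is not known. ISL1, TFAP2B and TBX2 had mean values of 4137 ± 212, 7989 ± 427 and 5744 ± 350.5.

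Paralogs differed widely in how unequal their levels were. The GATA2 level was 42.4 ± 8.65 times that of GATA3, which had values of 415, 561, 614 and 489. The INSM2 level was 117 ± 15.99 times that of INSM1, a zinc finger factor of neuroendocrine cells whose values were 104, 106, 88.1 and 75.4. HAND2 exceeded HAND1 by a factor of 1.34 ± 0.0706 (2.75 by median length) and TBX2 exceeded TBX3 by 1.25 ± 0.182 in level. The SOX11 and SOX4 levels differed by less than their spread, with a ratio of 1.022 ± 0.0922, and the order turned when replicate 1 was left out. SIX3 and ID4 were the other low members of the list, at mean values of 215 ± 21.3 and 68.2 ± 6.35.

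Of 33 mesenchymal markers measured, 24 (72.7%) were present, close to the 68% of all protein-coding genes (57.6% against 58.8% at a minimum of 50), and their median level was 1.57 per M against 49.3 for the adrenergic list. TGFB1, CCN1 and CCN2 were not analysed here. The defining factors were low: PRRX1 had values of 31.97, 13.6, 12.1 and 16.5, SNAI2 18.3, 9.84, 24.5 and 25.1, and FOSL1 6.33, 8.81, 3.44 and 6.80, and of these only PRRX1 was present. AXL, a receptor kinase of mesenchymal lines, had 15.7, 11.8, 8.38 and 5.67, and TWIST2, POSTN, TNC, MEOX1 and MEOX2 were not present either. YAP1, a coactivator of the Hippo pathway, was present at 64.1 ± 12.7 (SD, n = 4). No member of the list was at 0 in all 4 libraries.

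Some mesenchymal genes were nevertheless well expressed. TWIST1, a basic helix-loop-helix factor known to be high with MYCN amplification, had values of 2060.2, 1899, 1675 and 1792 and the highest level of the list, 86.4 ± 3.86 per M. ZEB1, THY1, PDGFRB, VIM and CD44 had mean values of 2812 ± 609.8, 1199 ± 107, 2553 ± 419, 1148 ± 123 and 1271 ± 123. ZEB2 had values of 383, 481, 509.6 and 1286, with replicate 4 far above the rest, and COL3A1 had 381, 92.1, 75.2 and 199, with replicates 1 and 4 above replicates 2 and 3. RUNX2 passed the limit in replicates 3 and 4 only, with 0.571, 0.288, 38.8 and 20.6.

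**Figure D2:**
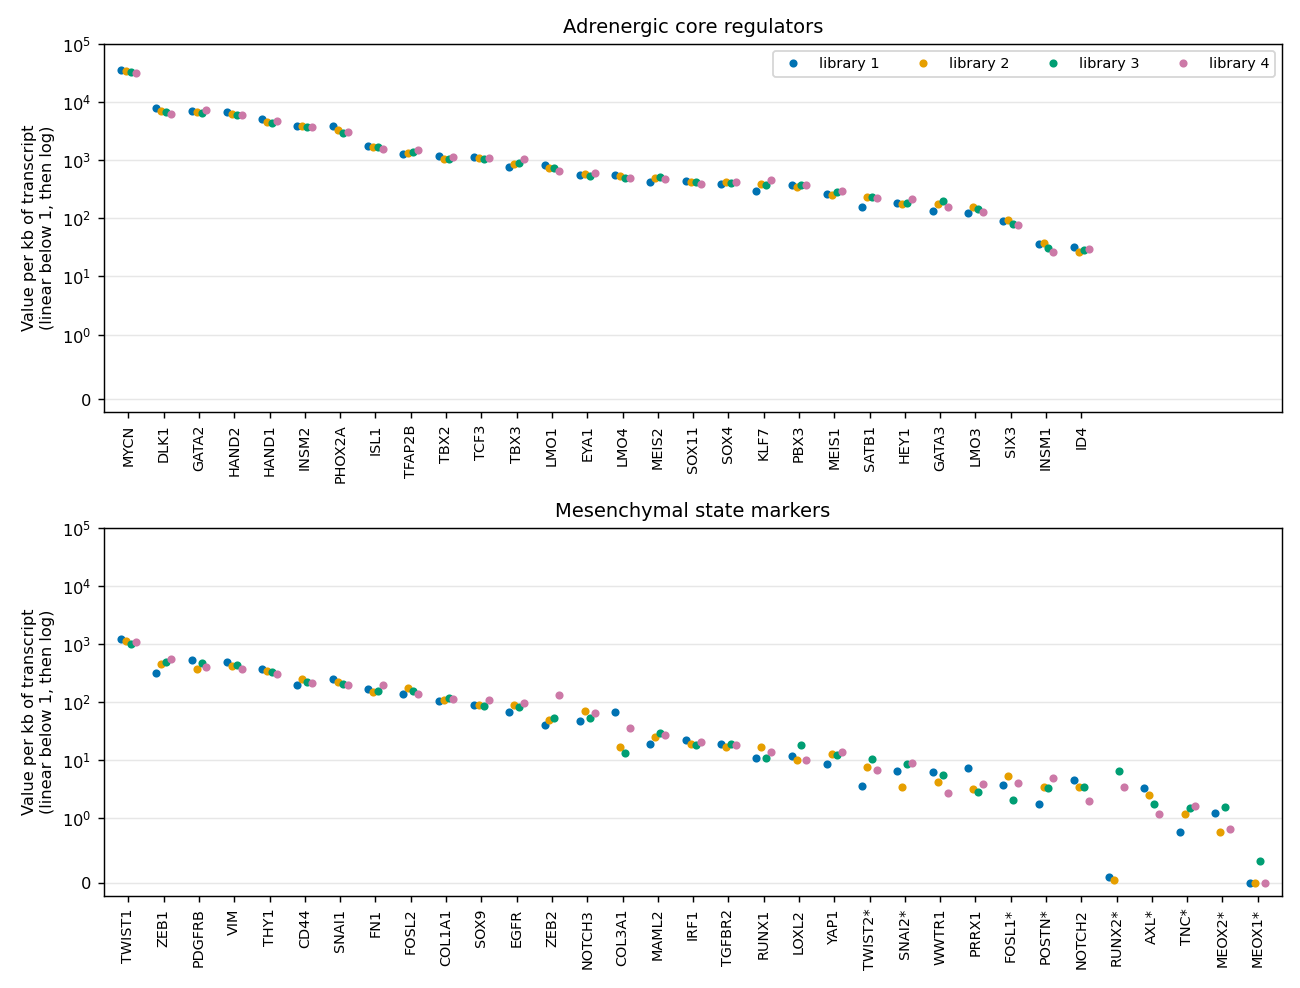
Values per kilobase of the longest transcript for the adrenergic and mesenchymal genes on an axis that is linear below 1 and logarithmic above, with 1 point per control library, and an asterisk at genes that were not present. The 28 adrenergic genes drawn are present, with INSM1 and ID4 the lowest, and 24 of 33 mesenchymal genes are, with TWIST1 the highest.

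Of 26 genes of catecholamine synthesis, storage and transport, granins and convertases included, 24 (92.3%) were present, against 68% of protein-coding genes. TH, the rate-limiting enzyme that converts tyrosine to DOPA, had values of 4667, 4329, 4439 and 4434 and a level of 182 ± 9.17 per M. DDC, which makes dopamine, had a mean value of 10446 ± 1388 (SD, n = 4). DBH, which converts dopamine to noradrenaline, had values of 32417, 31189, 30372 and 29067 and a level of 633 ± 18.0 per M, above that of TH in every library. PNMT, which would convert noradrenaline to adrenaline, was not present, with values of 9.81, 9.49, 8.30 and 6.39.

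CYB561, the granule protein that supplies electrons to DBH, had a mean value of 19759.7 ± 524 (SD, n = 4). The granule protein CHGA exceeded CHGB in level by a factor of 18.0 ± 1.01 (32.6 by median length), CHGB having a mean value of 7764 ± 839 (SD, n = 4). SLC6A2, the noradrenaline transporter through which labelled MIBG enters tumour cells, had values of 4219.8, 4054, 3886 and 3893. Of the vesicular transporters, SLC18A1 had a mean value of 507 ± 27.3 (SD, n = 4) and SLC18A2 of 390.5 ± 50.1 (SD, n = 4), a level ratio of 1.84 ± 0.280. MAOA, which degrades catecholamines, had 9335 ± 758 (SD, n = 4). GCH1, which makes the cofactor of TH, was uneven between libraries at 569, 764, 1078 and 454, with replicate 3 the highest. PCSK1, a prohormone convertase, was not present, at 0.441 ± 0.881 (SD, n = 4).

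Among 25 genes of other transmitter systems, 13 (52.0%) were present, against 68% of protein-coding genes, but at a minimum of 1 the share was 88.0% against 80.2%, so which was higher turned with the limit. The highest were the neuropeptides GAL (2048 ± 318) and SST (1053 ± 172). The cholinergic genes SLC18A3 and CHAT were present at 350.3 ± 25.0 and 115 ± 23.4, NPY at 108 ± 10.2 and VIP at 49.1 ± 12.9. The GABA synthesis genes GAD1 and GAD2, the glutamate transporter SLC17A6, the hormone precursor POMC and the histamine enzyme HDC were not present.

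All 40 neuron and neurite genes were present, against 68% of protein-coding genes, with a median level of 59.5 per M. The tubulins TUBA1A and TUBB3 had levels of 1369.6 ± 55.2 and 435 ± 5.89 per M, and UCHL1, an abundant neuronal deubiquitinase, had 932 ± 54.3. STMN1, a microtubule regulator of dividing cells, had 824 ± 24.1 per M, 2.17 ± 0.107 (1.09 by union of exons) times the level of STMN2, its counterpart in growing neurites. NEFH, the heavy neurofilament, had a mean value of 22004 ± 2369.9 (SD, n = 4) and a level of 451 ± 24.9 per M, 14.3 ± 1.45 (8.88 by median length) times that of NEFL, the light one. RBFOX3, the NeuN antigen of mature neurons, was the lowest of the 40 by value at 18.6, 36.3, 19.98 and 23.2.

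Of the 13 chromaffin and bridge cell markers, 12 (92.3%) were present, against 68% of protein-coding genes, and PNMT was the exception. EPAS1, which encodes the oxygen-regulated factor HIF-2alpha, had values of 19042, 22531, 22341 and 23911, with replicate 1 the lowest. Its level was 332 ± 51.8 per M. HTR3A, a serotonin receptor of bridge cells, had a mean value of 2256 ± 231 (SD, n = 4), and PENK, the enkephalin precursor, had 29.1 ± 1.67 (SD, n = 4). CARTPT and DLL3 had 277 ± 46.5 and 629.9 ± 27.0.

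Of 38 receptor kinases and neurotrophin receptors, 31 (81.6%) were present, against 68% of protein-coding genes, and at a minimum of 50 the share was 57.9% against 58.8%. RET, the receptor of glial cell-derived ligands, had values of 7106, 7524, 7897 and 8384 and a level of 107 ± 14.4 per M, and its level was 3.87 ± 0.119 (11.4 by median length) times that of ALK, a receptor recurrently mutated in neuroblastoma, whose values were 1967, 2237, 2221 and 2359. Of the coreceptors of RET, GFRA2 had a mean value of 1612 ± 113 (SD, n = 4). DDR2, a collagen receptor, had 9594 ± 1626 (SD, n = 4), PTK7 4123 ± 369.6 (SD, n = 4) and IGF1R 3125 ± 545 (SD, n = 4). Among the neurotrophin receptors, NTRK2 had 43.9 ± 6.97 (SD, n = 4). NTRK3 had values of 38.8, 28.9, 311 and 22.5, all but replicate 3 below 50.

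The insulin receptor gene INSR was not present by the rule, with values of 4.35, 13.9, 10.9 and 20.2, of which replicate 1 fell below 10. KIT, KDR, TEK, FLT3, CSF1R and AXL were not present either, KIT having a mean value of 3.27 ± 1.11 (SD, n = 4). PDGFRB had values of 3082, 2137, 2681 and 2314, with replicate 1 the highest and a CV of 16.4%.

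Of 26 surface and imaging targets of neuroblastoma therapy, 20 (76.9%) were present, against 68% of protein-coding genes. DLK1 had the highest level, and CD24, an adhesion glycoprotein, had a mean value of 13239 ± 788 (SD, n = 4). L1CAM, NCAM1 and CD276 (B7-H3) had 5116 ± 134, 5707 ± 1039.8 and 3078 ± 184. B4GALNT1, an enzyme of GD2 ganglioside synthesis, had values of 1640.4, 1643, 1622 and 1693. The proteoglycan GPC2 had 610.0 ± 44.7 (SD, n = 4). Among somatostatin receptors, the targets of DOTATATE imaging, SSTR2 had 233 ± 22.3 (SD, n = 4), SSTR1 was not present and SSTR5 was at 0. FOLH1, GRPR and MS4A1 were not present either.

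Markers of other cell types were read to check the label of the cells. In bulk RNA, fewer cells of a type and less RNA per cell cannot be told apart. The counts of markers stand beside the 68% of all protein-coding genes that were present by the same rule. Lymphoid and myeloid markers were present in 2 of 18 genes, CD4 (15.7 ± 4.91) and ITGAM (15.8 ± 3.49), with CD3D at 0, PTPRC at 5.26 ± 1.06 (SD, n = 4) and a summed value of 93.4 to 107 per library. None of the 14 erythroid and liver markers was present, HBA2, HBG1 and HBG2 were at 0, and the sum was 24.7 to 65.2. Endothelial markers were present in 4 of 12 (CLDN5, VWF, PECAM1 and FLT1), with a sum of 226 to 299.96. Epithelial markers were present in 5 of 16, led by the keratin KRT19 (151 ± 49.4), with KRT5 at 0, CDH1 not present at 6.51 ± 4.28 (SD, n = 4) and a sum of 302 to 508.

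Adrenal cortex markers were present in 4 of 10 (CYP11A1, NR0B1, MC2R and STAR), against 68% of protein-coding genes, with a sum of 120.2 to 197. At a minimum of 1 they were present in 9 of 10, against 80.2% of protein-coding genes. CYP17A1, a steroid hydroxylase, had values of 0.272, 0, 1.57 and 70.4, so that replicate 4 alone held nearly all of them. Schwann and glial markers were present in 7 of 18 (38.9%), against 68% of protein-coding genes, with a sum of 1718 to 2109.7. At a minimum of 1 they were present in 15 of 18 (83.3%), against 80.2%, so which was higher turned with the limit. The glial factors SOX10 and OLIG1 and the myelin gene MAL were at 0, while the glutamate transporter SLC1A3 had 989 ± 119.7 (SD, n = 4), PMP22 553 ± 48.0 (SD, n = 4) and GFAP 74.9 ± 16.7 (SD, n = 4). Fibroblast and stromal markers were present in 14 of 16 (87.5%), above the 68% of protein-coding genes, with a sum of 16785 to 19181. SPARC, a matrix glycoprotein, had 4460.1 ± 160.4 (SD, n = 4), the collagenase MMP2 3800.3 ± 398 (SD, n = 4), and COL6A1 3446 ± 218 (SD, n = 4). LUM and FAP were not present, with values of 13.1, 19.1, 19.5 and 6.67 for LUM and 4.51, 7.61, 3.52 and 4.98 for FAP.

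**Figure D3:**
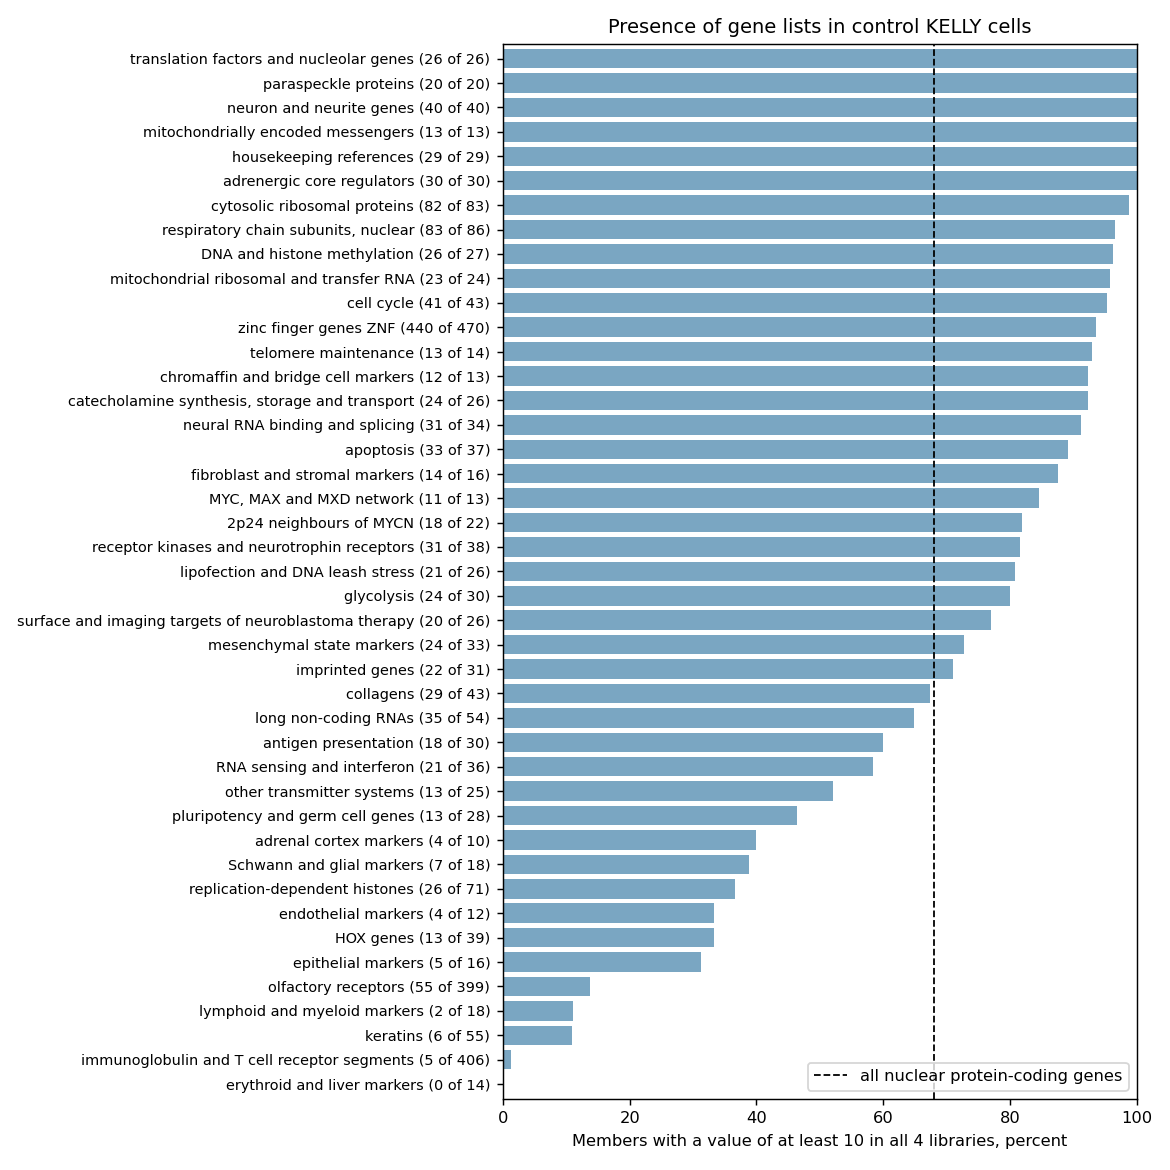
Share of measured members that were present in the 4 control libraries, in percent, as 1 bar per gene list, with a dashed line at the 68% of all nuclear protein-coding genes. Neuronal, adrenergic, ribosomal and housekeeping lists lie at or near 100%, and the erythroid and liver list and the immunoglobulin and T cell receptor list hold 0 of 14 and 5 of 406.

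Of 39 HOX genes, the homeobox factors that give cells their place along the body axis, 13 (33.3%) were present, against 68% of protein-coding genes. Their presence followed the clusters. None of the 11 genes of the HOXA cluster on chromosome 7 and none of the 10 of the HOXB cluster on chromosome 17 was present. In the HOXC cluster on chromosome 12, 5 of 9 were present, and in the HOXD cluster on chromosome 2, 8 of 9. Summed over a cluster, the values were 17.3 ± 7.70 for HOXA, 38.4 ± 10.8 for HOXB, 3044 ± 237 for HOXC and 2354 ± 155 for HOXD (SD, n = 4), and the HOXC and HOXD sums were above those of HOXA and HOXB in every library.

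HOXC4 had the highest level of the HOX genes, with values of 1507, 1223, 1274 and 1296 and 61.7 ± 3.38 per M, and HOXD13, the last gene of its cluster, came next with values of 1196, 1035, 962 and 1027 and 36.5 ± 1.64 per M. HOXC8, HOXC6 and HOXC9 had mean values of 639 ± 23.2, 568 ± 52.6 and 412 ± 66.5, and HOXC5 had 83.4 ± 16.3. The other HOXD genes had means of 431 (HOXD9), 333 (HOXD8), 237 (HOXD3), 141 (HOXD4), 85.0 (HOXD10), 45.1 (HOXD1) and 26.0 (HOXD11). HOXD12, between HOXD11 and HOXD13, was not present, with values of 4.04, 1.79, 1.78 and 0.952. HOXA2, HOXA4 and HOXC12 were at 0. The lowest present HOX gene, HOXD11, lay above the highest member of HOXA and HOXB by mean, HOXB3 at 5.85, 5.66, 11.9 and 27.1, although replicate 4 of HOXB3 was above replicate 4 of HOXD11.

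Imprinted genes are expressed from the copy of 1 parent, and the files do not separate the copies. Of 24 genes whose expressed copy is established, the 17 paternally expressed ones had 14 present and a median value of 392. The 7 maternally expressed ones had 2 present and a median of 2.91. Of all protein-coding genes, 68% were present. The 7 maternal genes lie at only 2 loci. Those not present were all in 11p15, and the 2 present, MEG3 and MEG8 (24.7 ± 6.20), were both in 14q32. Neighbours at a locus are not independent, so these counts give no general contrast between the parental copies. IGF2, a fetal growth factor on chromosome 11 expressed from the paternal copy (chr11:2129112-2149603, − strand), had values of 43539, 46820.3, 47945 and 46701 and a level of 646 ± 66.3 per M. A second row, AC132217.1, had a mean of 4240.1 and shares 93.3% of its 31-base words with IGF2, so the division between these rows is uncertain. The maternally expressed neighbour H19 had values of 6.50, 0, 3.58 and 1.56, all below 10. In the same band the paternally expressed KCNQ1OT1, which runs antisense to KCNQ1, had 2368 ± 193 (SD, n = 4). The maternally expressed CDKN1C, KCNQ1, PHLDA2 and SLC22A18 had 5.21 ± 1.56, 2.03 ± 1.46, 0.262 ± 0.524 and 1.75 ± 0.836. KCNQ1OT1 is 91667 bases long, and its level was 2.02 per M, against 0.209, 0.0480, 0.0227 and 0.0518 for these genes in order. The contrast was therefore smaller by level than by value.

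The 14q32 locus had the same order. The paternal genes DLK1 and RTL1 had values of 37462, 33200.2, 31831 and 29654 and of 5792, 5927, 6125 and 6075, and the maternally expressed MEG3 had 47.1, 64.6, 48.9 and 50.9. Of the other paternal genes, PEG10 had 6302 ± 643 (SD, n = 4), SNRPN 2417 ± 316 (SD, n = 4) and MEST 1979 ± 370.5 (SD, n = 4), and PEG3 was uneven at 162, 526, 507 and 373, with replicate 1 the lowest. NNAT and NDN were low at 45.5 ± 8.82 and 62.7 ± 7.83, ZIM2 and HYMAI were not present and MAGEL2 was at 0. GNAS, whose imprinting depends on tissue and transcript, had the highest level of the 31 imprinted genes listed, 1509 per M. By union of exons its level was 585 per M, below IGF2 (663) and DLK1 (618), so this order depends on the length used. Of the 31 genes, 22 (71.0%) were present, near the 68% of protein-coding genes. NAP1L5 and DIRAS3 were not analysed here.

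**Figure D4:**
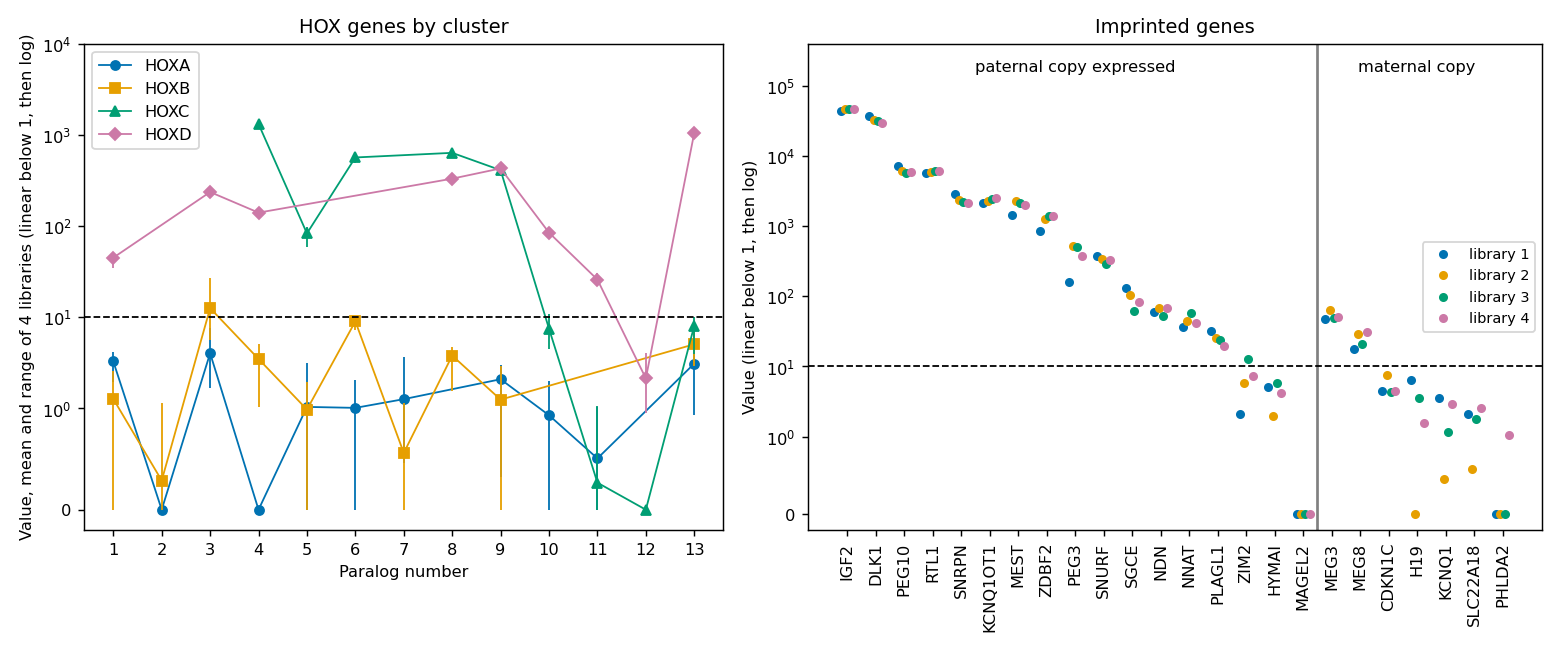
Normalized counts of HOX genes by paralog number (left: mean of the 4 libraries, with a vertical line from the lowest to the highest) and of imprinted genes by expressed copy (right: 1 point per library), on axes that are linear below 1 and logarithmic above, with a dashed line at 10. HOXA and HOXB genes lie near or below the limit and most HOXC and HOXD genes above it, and IGF2 and DLK1 lie far above H19 and MEG3.

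Germline and developmental genes were present in 13 of 28 cases, below the 68% of protein-coding genes. PRAME, a cancer-testis antigen, had values of 23168, 22450.5, 21314 and 21994 and a level of 611 ± 27.1 per M. LIN28B, which blocks maturation of let-7 miRNAs, had values of 6011, 7747, 8079.8 and 8000.5, and its level was 37.9 ± 5.45 (73.7 by median length) times that of LIN28A. The MAGE antigens MAGEA10, MAGEA1 and MAGEA6 had 2982 ± 188, 2095 ± 187 and 793 ± 80.9, and MAGEA1 exceeded MAGEA3 in level by a factor of 13.7 ± 1.023. MAGE genes are near-identical copies, so how reads were divided among them is uncertain. GAGE1, of another such family, had values of 6.65, 178, 10.9 and 81.9. The pluripotency factors POU5F1 and NANOG were not present, at 9.75 ± 4.52 and 13.6 ± 4.87, and DNMT3L and CTAG1B were at 0.

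Of 43 cell cycle genes, 41 (95.3%) were present, against 68% of protein-coding genes. PCNA, the replication clamp, had values of 10835, 9399, 8986 and 8572, and TYMS, MCM3, RRM2, MCM2 and CDK4 had levels of 431, 372, 304, 304 and 277 per M. Among D-type cyclins, CCND1 had values of 6245, 7746, 8174 and 9366 and CCND2 had 26.1, 38.9, 37.7 and 35.2, a level ratio of 347 ± 43.5 (226 by median length), and CCND3 had 567 ± 89.6 (SD, n = 4). RB1, the retinoblastoma gene, had values of 108, 116, 68.7 and 110.4, below its relative RBL2 at 1640.0, 2150.4, 1988 and 2121. The cell cycle inhibitor CDKN2A was present at 57.7 ± 11.3 (SD, n = 4), and CDKN2B and CDKN1C were not, at 3.44 ± 1.81 and 5.21 ± 1.56.

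Of 37 apoptosis genes, 33 (89.2%) were present, against 68% of protein-coding genes. CYCS (cytochrome c), BAX, BIRC5, MCL1 and BID had the highest levels, at 252, 209.6, 178, 161 and 92.2 per M. MCL1 exceeded BCL2, another inhibitor of cell death, by 11.9 ± 2.52 in level. MDM2, a ubiquitin ligase, had values of 4051, 5236, 5102 and 5576. CASP8, often silenced in neuroblastoma, had values of 80.9, 120.4, 103 and 145. TNFRSF10A, a death receptor, and FASLG, BIK and BCL2A1 were not present.

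Cytosolic ribosomal protein genes were present in 82 of 83 cases, against 68% of protein-coding genes, RPL10L being at 0. Together they held 6.38% ± 0.853 of all values (SD, n = 4). Their sum was highest in replicate 1, and their median log2 deviation from the gene's median library was 0.40, 0.05, −0.05 and −0.14 in replicates 1 to 4. Their transcripts are short, and the part of transcript length in this was not tested. Nuclear subunits of the respiratory chain were present in 83 of 86, with COX6A2 at 0, and had a median deviation of 0.34 in replicate 1. All 26 translation factors and nucleolar genes and all 29 housekeeping references were present. These counts too stand against 68% of protein-coding genes.

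Glycolysis genes were present in 24 of 30 (80%), against 68% of protein-coding genes, with the testis and liver isoforms PGK2 and PKLR at 0. After GAPDH and LDHB, the highest levels were those of TPI1 (1339 per M), PKM (885), ALDOA (691) and PGAM1 (445). Isoform genes were unequal: the level of LDHB was 6.49 ± 0.997 times that of LDHA, that of the neuronal enolase ENO2 4.38 ± 1.06 times that of ENO1, and that of the muscle phosphofructokinase PFKM 11.5 ± 1.35 (26.0 by median length) times that of the liver form PFKL. HK1 exceeded HK2 by 2.15 ± 0.296 (10.8 by median length). GPI was uneven, with values of 785, 1729, 1894 and 2381 and replicate 1 the lowest.

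Antigen presentation genes were present in 18 of 30, a share of 60.0% against 68% of protein-coding genes, and at a minimum of 1 the share was 93.3% against 80.2%, so which was higher turned with the limit. The chaperones CALR and PDIA3, which serve many glycoproteins, led at 692 and 289.9 per M. B2M, the light chain of class I molecules, had values of 4333, 3676, 3449 and 3420.2, HLA-C had 186, 173, 170.0 and 164 and HLA-B had 21.2, 26.4, 43.8 and 23.3. The peptide transporter TAP1 and the immunoproteasome subunits PSMB8 and PSMB9 were not present, with mean values of 5.49 ± 2.52, 2.00 ± 0.786 and 2.57 ± 1.99, and neither was HLA-E, at 12.02 ± 3.81. HLA-DRA was at 0, while HLA-DQA1 had 342 ± 24.1 (SD, n = 4). HLA genes are similar in sequence and differ from the reference in any given line, so their values are uncertain.

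Genes of RNA sensing and interferon were present in 21 of 36 (58.3%), against 68% of protein-coding genes, and at a minimum of 1 in 86.1% against 80.2%. ADAR, which edits double-stranded RNA, had values of 13115, 16168, 15876 and 16299, with replicate 1 the lowest. TBK1, EIF2AK2, STAT2 and IRF3 had mean values of 1467 ± 92.0, 3041 ± 606, 879 ± 27.1 and 764 ± 73.0. The sensors IFIH1, CGAS and TLR3 were not present at 3.56 ± 2.06, 6.71 ± 2.54 and 10.7 ± 2.00, nor was TMEM173 (STING) at 6.13 ± 4.11. DDX58 (RIG-I) was present at 85.3 ± 8.76 (SD, n = 4). The induced gene IFIT1 had 137 ± 13.4 (SD, n = 4) and ISG15 was not present at 3.76 ± 1.48 (SD, n = 4), and IFNL1 was at 0. Since every library was transfected, no level without transfection was available here for comparison.

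Of 26 genes that respond to lipofection or foreign nucleic acid, 21 (80.8%) were present, against 68% of protein-coding genes. HMGCS1, of cholesterol synthesis, and TXNRD1, of the oxidative stress response, had 10541 ± 851 and 10742 ± 1208. HSPA1B, an inducible heat shock protein, was among the least variable genes at 3881, 3819, 3843 and 3831, while its near-identical neighbour HSPA1A had 0, 3.24, 3.22 and 0, and 74.3% of 31-base words of the latter also occur in HSPA1B, so the division between them is uncertain. The immediate early gene FOS had values of 51.7, 244.8, 44.8 and 32.9, with replicate 2 far above the rest. The cytokines TNF and IL6 were not present, at 10.1 ± 1.86 and 8.13 ± 4.63.

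Telomere maintenance genes were present in 13 of 14, against 68% of protein-coding genes. TERT, the catalytic subunit of telomerase, had values of 363, 388, 481 and 456, and TERC, its RNA, was listed at 0, as were RNU4-1 and RN7SL3, so nothing is said here of its expression. ATRX and DAXX, whose loss accompanies telomerase-free lengthening, had 3892 ± 549 and 3185 ± 296. Of 27 DNA and histone methylation genes, 26 were present, against the same 68%. They were led by the demethylase KDM1A (13053 ± 1470.2) and the methyltransferase EZH2, whose level was 3.81 ± 0.259 (1.105 by median length) times that of EZH1.

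Neural RNA-binding and splicing genes were present in 31 of 34, against 68% of protein-coding genes. PTBP1, the splicing repressor of non-neuronal and progenitor cells, exceeded its neuronal relative PTBP2 by 26.5 ± 1.40 (16.8 by median length) in level. IGF2BP1, an oncofetal RNA-binding protein, had values of 17205, 19653, 20747 and 22379.5 and IGF2BP3 4052, 5234, 5244 and 6159, whereas IGF2BP2 was not present at 4.77, 9.23, 5.25 and 22.5. RBFOX2 and KHDRBS1 had 16009 ± 2179.7 and 9729 ± 360.3. All 20 paraspeckle proteins were present, against the same 68%, with a median CV of 4.96%. SFPQ, NONO and HNRNPK, which build these nuclear bodies on NEAT1, had 24499 ± 1019, 23114 ± 738 and 18739.7 ± 376.

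The long non-coding gene with the highest value was AD000090.1, at 77183, 61764, 51381 and 35732, with replicate 1 the highest and replicate 4 the lowest and a CV of 30.9%. Its only annotated transcript has 494 bases, and its level was 8774 ± 2154 per M (3458 by median length). Whether its reads come from this gene was not tested. HAND2-AS1 (chr4:173527270-173659696), which overlaps HAND2 on the opposite strand, had values of 12516, 14935, 14845 and 14875. As for MYCNOS, reads from the stretch that both genes share may be divided between them in an unknown way. GAS5, a host of small nucleolar RNAs, had 14005 ± 1186, NORAD 9414 ± 873 and SNHG16 7984 ± 229. NEAT1, the scaffold of paraspeckles, had values of 6926, 7021, 7074 and 6494, which vary little, and the file does not separate its short and long forms. MALAT1, a neighbour of NEAT1, had 14124, 6917, 7149.6 and 5515, with replicate 1 above the rest. FP671120.3, FP236383.3 and FP236383.2 carried nearly the same values, with means of 11260.5, 11259.7 and 11259, so how reads were divided among them is uncertain. FP236383.2 lies at chr21:8393419-8394341, near the ribosomal RNA row RNA5-8SN3 at chr21:8395607-8395759. Whether the FP rows hold reads of ribosomal RNA was not tested. Of 54 non-coding RNAs listed, 35 (64.8%) were present. The list was mixed, since it also held small RNAs such as RN7SL3, RNU4-1 and VTRNA1-1. Among all genes, 21.2% of long non-coding and 1.90% of small RNA rows were present, so neither share is a like background. TERC, RN7SL3, RNU4-1 and VTRNA1-1 were at 0. HOTAIR, a transcript of the HOXC cluster, was not present at 2.55 ± 0.0800 (SD, n = 4).

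Among small RNA rows the highest were FP671120.1 (3124 ± 398), RNA5-8SN3 (545 ± 43.3), RN7SL1, RN7SL2 and AL513534.1 (341 ± 56.7). FP671120.1 lies at chr21:8208844-8208904, and whether it holds reads of ribosomal RNA was not tested either. RN7SL1 and RN7SL2, the RNA of the signal recognition particle, had 1089, 309, 294 and 380.3 and 888, 341, 328 and 258, with replicate 1 the highest in both. The leading pseudogene rows share sequence with expressed genes, so their values cannot be assigned to them with certainty. RPL9P9 had a mean of 35024 against 1757 for RPL9, with 88.8% of its 31-base words found in RPL9, and AC116533.1 had 22006 against 9447 for RPL36A, with 100% shared. RPL21P16 had 17179 against 9840.0 for RPL21, also with 100% shared, MTATP6P1 had 35164 with 61.3% shared with MT-ATP6, and RPS2P5 had 9348 with 68.0% shared with RPS2.

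Keratins were present in 6 of 55 genes with 17 at 0, olfactory receptors in 55 of 399 with 156 at 0, and immunoglobulin and T cell receptor segments in 5 of 406. By the same rules 68% of protein-coding genes were present and 7.57% were at 0. The olfactory receptor with the highest value, OR2M3, had 323, 357, 361 and 388. Collagens were present in 29 of 43 (67.4%), near the 68% of protein-coding genes, and in 18 at a minimum of 50, led by COL6A1, COL4A2 (2762 ± 188) and COL6A2 (927 ± 183). Replication-dependent histones, most of whose messengers lack a poly(A) tail, were present in 26 of 71 with 8 at 0, against the same 68% and 7.57%. Zinc finger genes named ZNF were present in 440 of 470, above the 68% of protein-coding genes.

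Over the 17792 present genes outside chromosome Y the median CV between the 4 libraries was 13.04%, and it fell with the mean value: 22.0% for means of 10 to 50, 16.3% for 50 to 200, 11.6% and 9.63% in the next classes and 8.84% in the highest. It was 8.79% without replicate 1. A CV of at most 10% was found in 34.9% of these genes and one above 50% in 234. Among 6348 genes with a mean of at least 1000, the 8 with the largest CV were IL6ST, AC110079.1, LCOR, RAPGEF6, AGO2, TENM4, PHC3 and MALAT1. IL6ST, the shared receptor subunit of the interleukin-6 family, had values of 819, 3103, 2192 and 3978, LCOR, a nuclear receptor corepressor, had 852, 2478, 3673 and 3794, and AGO2, the slicer of RNA interference, had 2075, 3641, 4107 and 6928. Replicate 1 was the lowest library for IL6ST, LCOR, RAPGEF6, AGO2 and TENM4 and replicate 4 the highest for IL6ST, LCOR, AGO2 and PHC3.

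The 8 genes with the smallest CV were GTSE1, HSF2, FASTKD5, PRMT7, PPIL4, FAM171A1, HSPA1B and POLR3E. GTSE1, a mitotic microtubule protein, had values of 4034, 4012, 4047 and 4022 and a CV of 0.379%, and HSF2, a heat shock factor, had 1479.6, 1474, 1464 and 1471 and 0.445%. The 8 variable genes had a median longest transcript of 10861.5 bases and 13 annotated transcripts, the 8 steady ones 2993 bases and 3 transcripts, and all genes at that level 4109 bases and 9 transcripts. Over all genes with a mean of at least 1000, however, the median CV changed little with the number of transcripts, from 8.82% for 274 genes with 1 to 9.75% for 2868 genes with 10 or more. With the GC and length trends of each library removed, the median CV of present genes was 11.8%. PAX5, a B cell factor singled out after its values were seen, was present at 759, 2286, 2536 and 2021, with replicate 1 the lowest.

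**Figure D5:**
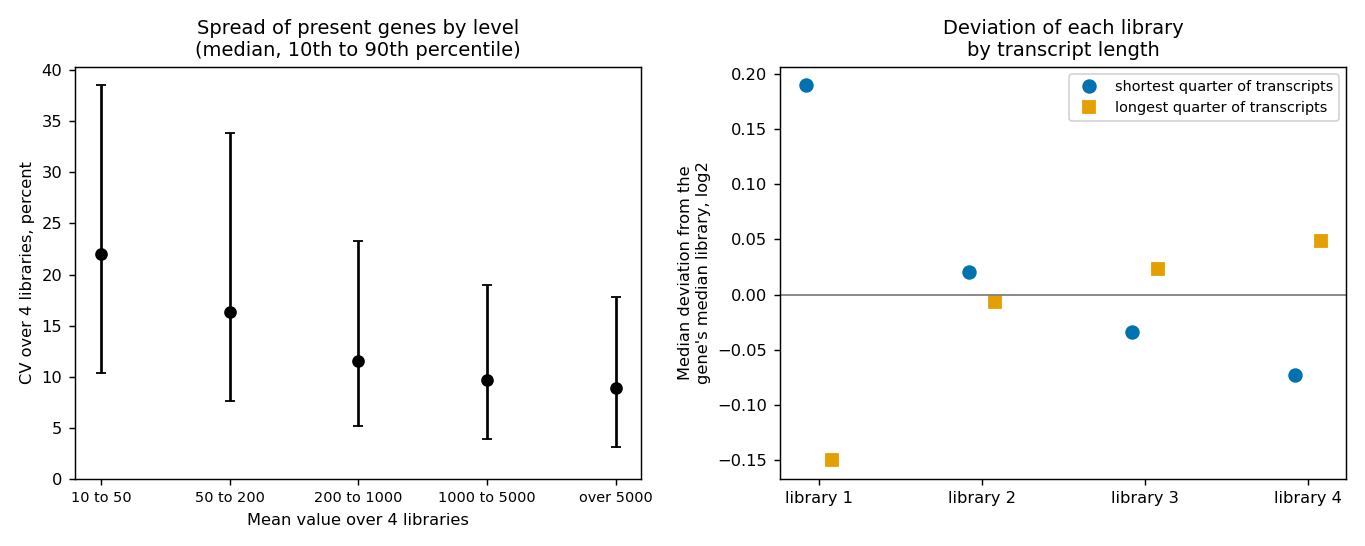
Left: coefficient of variation over the 4 control libraries, in percent, of present genes in 5 classes of mean normalized count (points are medians, lines run from the 10th to the 90th percentile). Right: median log2 deviation of each library from the gene's median library, for the shortest and the longest 25% of transcripts. The median falls from 22.0% to 8.84% with rising mean, and replicate 1 lies above the others for short transcripts and below them for long ones.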

How the data were processed

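The 4 control libraries were the columns labelled as control oligonucleotide, replicates 1 to 4, of a table of 55771 genes by 12 libraries. The deposited values are normalized counts per gene, a signal that is never negative. Per the submitters' processing notes, Salmon 0.8.2, DESeq2 (version not given in the sources used here) and FastQC 0.11.7 were used with GRCh38, and the annotation release is not given in the sources used here. Genes with 1 annotated transcript had values in whole multiples of 1 step per library (98.2% of present ones, within 0.01 reads) and genes with 5 or more had 0.357%, so the size of 1 read could be read from the former and depth was estimated as total over step. No count test was run, since the rule allows 1 group only: values are given as mean ± SD (n = 4), CVs and counts, with no p-value. Pairs of libraries differed by 3.68 to 43.5 in mean chi-square per row over 2574 rows, so by the mean none agreed within sampling noise. The medians per row were lower, at 0.626 to 0.826 among replicates 2 to 4 and 1.41 to 2.01 for pairs with replicate 1. The median of this statistic lies below its mean under sampling noise too. Medians below 1 are therefore no sign that the typical row agreed within noise. All 4 libraries were kept.

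Gene types, positions and transcript lengths came from GENCODE release 29 on GRCh38, matched by identifier for 53405 rows and by symbol for 1192, which held 3.10% of all values, with 1174 unmatched. This release may not be the one the authors used. Levels used rows of at least 200 bases. Near-identical sequence was measured as the share of 31-base words. Start windows came from RefSeq on GRCh38.p14. Python 3.11.15, pandas 2.3.3, numpy 2.4.6, scipy 1.17.1 and matplotlib 3.10.9 were used, and the CV, step and gap calculations were tested on simulated data. Alternatives tried were other minimum values, other scalings, GC and length trends removed, other transcript lengths, other row totals and the omission of each library.

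The gene lists and members were chosen with earlier results of these data known. The genes named were the 20 protein-coding genes with the highest level, the mitochondrial messengers, the 10 long non-coding and 5 small RNA rows with the highest value, in each list up to 6 present members of highest level with the members at 0 (up to 6), all of the MYC network, the region around MYCN, present HOX genes and the paralogs compared, and the 8 genes of largest and 8 of smallest CV with a mean of at least 1000. Members named beyond this, such as those that were not present, the pseudogene rows, RGS4, PAX5 and HLA-B, were chosen after their values were seen. Some genes that these rules name are counted in their lists but not reported here.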

Additional observations from a re-analysis of the deposited data

Results flagged for a closer look

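Of 274 values of genes, gene classes and list sums described, 24 had 1 library far from the other 3, with a gap to the nearest library that took more of the whole range of the 4 than the 95% critical value of Dixon's test. Chance gives such a gap in about 1 of 20 groups of this size, and over the 17792 present genes outside chromosome Y it was found in 6.84%. Some of the 274 were named after their values were seen, so the 24 cannot be weighed against these shares. The far library was replicate 1 in 15 of the 24, and replicates 2, 3 and 4 in 3 each.

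Replicate 1 was far below the others for ADAR (13115 against 15876 to 16299), HAND2-AS1 (12516 against 14845 to 14935), IGF1R (2317 against 3313 to 3497), LIN28B (6011 against 7747 to 8079.8), MXI1 (1360.3 against 1539 to 1570.3), NORAD (8110.3 against 9734 to 9926), RGS5 (168418 against 204102 to 209540.0) and SLC18A2 (316 against 409 to 427). These include RGS5, of the leading 20, the let-7 regulator LIN28B and the non-coding NORAD and HAND2-AS1. Replicate 1 was far above the others for KRT19 (225 against 123 to 128), MCM3 (17939.7 against 14450.5 to 14716), MMP2 (4396 against 3586 to 3617), MT-ND6 (31480.2 against 21505 to 22649.8), NPY (123 against 101 to 104), RN7SL1 (1089 against 294 to 380.3) and RN7SL2 (888 against 258 to 341). Both RNAs of the signal recognition particle and the mitochondrial messenger MT-ND6 are in this group. The length and GC trends of replicate 1 are given above, and their part in each gene was not tested.

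Replicate 2 was far above the others for FOS (244.8 against 32.9 to 51.7), KCNS3 (68.9 against 47.7 to 48.9) and NONO (24209.5 against 22626 to 22878). Replicate 3 was far above the others for NTRK3 (311 against 22.5 to 38.8) and far below them for ATRX (3071 against 4128 to 4219.9) and HK1 (3267 against 4248 to 4356). Replicate 4 was far above the others for CYP17A1 (70.4 against 0 to 1.57) and ZEB2 (1286 against 383 to 509.6). Genes entered this check at a mean of at least 10, which CYP17A1 reached only through replicate 4. The summed value of the mesenchymal markers was also far above in replicate 4, at 18881 against 17355 to 17602, and ZEB2 is a member of that sum.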

How the results depend on the processing

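No paired analysis was possible because the 4 libraries form 1 group. The number of genes present was 18036 to 18191 when a library was left out, the number at 0 was 16995 to 17104, the protein-coding share was 87.7% to 88.1%, the share of the leading 100 genes 22.3% to 23.3%, the median level of present protein-coding genes 15.8 to 16.6 and the number of gene lists above the protein-coding share 26 to 27 (26 of 43 with all libraries). The median CV was 8.79% to 13.9%, and the lowest of these was found without replicate 1. Presence was 25580 genes at a minimum of 1 and 13349 at a minimum of 50, against 17801. The number of present members moved by over 1.5 times in 13 of 43 gene lists at a minimum of 1, in 10 at a minimum of 50 and in 7 at a level of at least 1 per M. Set against the share of protein-coding genes under the same limit, 6, 3 and 4 lists changed side: at a minimum of 1 other transmitter systems, glial, adrenal cortex, antigen presentation, RNA sensing and collagen genes lay above it, and at a minimum of 50 mesenchymal, receptor kinase and imprinted genes lay below it, as they did by level together with mitochondrial ribosomal and transfer RNA. Without mitochondrial and small RNA rows in the total, the protein-coding share was 96.3% and the leading 100 genes held 16.9%. With the median transcript length the median level was 18.6 per M. Of 31 pairs of genes compared in level, 1 changed direction, SOX11 to SOX4 without replicate 1 (log2 ratio −0.0277, in a range up to 0.0741 over the omissions, the highest without replicate 4). The ratio of levels moved by over 1.5 times in 17 of 31 pairs with the median transcript length and in 4 of 31 with the union of exons. With GC trends removed the median CV was 12.5%, and with length trends also removed, an alternative chosen after seeing the data, it was 11.8%. A 0 allows up to 3 reads per library by depth, and RNAs that every cell uses are listed at 0 too, so depth is not the only limit. Values of long genes with many transcripts and of near-identical genes depend on how the counting divided reads.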
